A study of Mus musculus with 70 samples.

Results

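The data described here are 7 bulk RNA-seq libraries of mouse microglia, 4 from tamoxifen-treated and 3 from oil-treated mice of the Littman Cx3cr1CreERT2 line, all after the CSF1 receptor inhibitor BLZ945. They were chosen by their sample titles and are 7 of the 70 libraries of the series. All 7 carry the genotype Cx3cr1CreERT2(Litt) Hetero, in which a tamoxifen-dependent Cre recombinase is made from the Cx3cr1 locus, and the labels name no floxed allele. BLZ945 was given by gavage at 100 mg/kg to adults of 6 to 15 weeks. Tamoxifen was injected into the abdomen at 4 mg, 2 times, and the controls received oil. The labels do not give the order or the interval between BLZ945 and tamoxifen, so whether the cells sequenced were survivors of CSF1 receptor blockade or cells that refilled the brain cannot be read from them. Nor do they say that each library came from its own mouse, so the p-values below measure the spread between libraries. Each library holds 500 cells that were sorted for CD11b and CD45 and were negative for Ly6G and CD206, of which 15 of 30 uL of lysate was used, and 3' transcript ends were counted by CEL-Seq2.

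Microglia are the resident macrophages of the brain. They depend on signalling through the CSF1 receptor, and a strong inhibitor of that receptor kills most of them, after which the survivors divide and fill the brain again. Cre recombinase can cut genomic DNA, and cut DNA stabilises the transcription factor p53, which turns on Cdkn1a, the gene of the cell cycle inhibitor p21. DNA that leaves the nucleus can set off type I interferon signalling, which raises a broad set of antiviral genes and the MHC class I genes.

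The 7 libraries held 224642 to 236106 counts and 11208 to 11843 detected genes each, and mitochondrial transcripts made up 4.25% to 6.15% of counts. Values below are CPM, counts scaled to a common library size, and fold changes are tamoxifen against oil on the log2 scale with their standard error, from edgeR. At this depth a level of about 5 CPM is a single count. Summed microglia markers were 24121 to 25340 CPM in the oil libraries and 12899 to 22621 CPM in the tamoxifen libraries, against 41.8 to 108 CPM for border macrophage markers and 206 to 604 CPM for monocyte markers. Markers of neutrophils, cells that the sort was meant to leave out, were at 0 in 5 libraries but reached 667 counts (0.295%) in oil replicate 3 and 591 counts (0.254%) in tamoxifen replicate 1. By Xist and Y-linked counts, all 3 oil libraries and tamoxifen replicate 1 came from males, and tamoxifen replicates 2, 3 and 4 from females. Within these 7 libraries, sex and tamoxifen can be told apart only through that single male tamoxifen library. The fit of this comparison with sex as a covariate also drew its sex term from 8 libraries of another Cre line, Jung, in the same count table. It assumes that sex acts alike in both lines. Tamoxifen replicate 4 stood apart from the rest: its mean correlation with the other 6 libraries was 0.865, against 0.880 to 0.890 for the others, and it was more than 1 log2 unit above every other library in 17 genes (0 to 7 for the others) and below every other in 74 (23 to 41).

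Cdkn1a, at chromosome 17, 29090976 to 29100727 on the plus strand (GRCm38), gave the clearest difference. Its level was 119, 93.9 and 175 CPM in the oil libraries and 847, 786, 786 and 953 CPM in the tamoxifen libraries. Every tamoxifen library lay well above every oil library, and the 4 tamoxifen libraries were close to each other, including the single male one at 847 CPM. The log2 fold change was 2.70 ± 0.27 (edgeR adjusted p = 1.79e-07), from 74 counts in all oil libraries and 666 in all tamoxifen libraries. Among male libraries it was 2.70, with sex as a covariate 2.91, and leaving out each of the 7 libraries in turn gave 2.52 to 2.97. Of 5163 genes tested, edgeR called 3 at an adjusted p below 0.05 (0.0581%), all of them higher after tamoxifen: Cdkn1a, the MHC class I gene H2-D1 and the receptor gene Cd300lf. Cdkn1a was called in each of the alternative fits and in each fit that left out a library, and it was the sole call without oil replicate 2, without oil replicate 3 and without tamoxifen replicate 2.

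**Figure D1:**
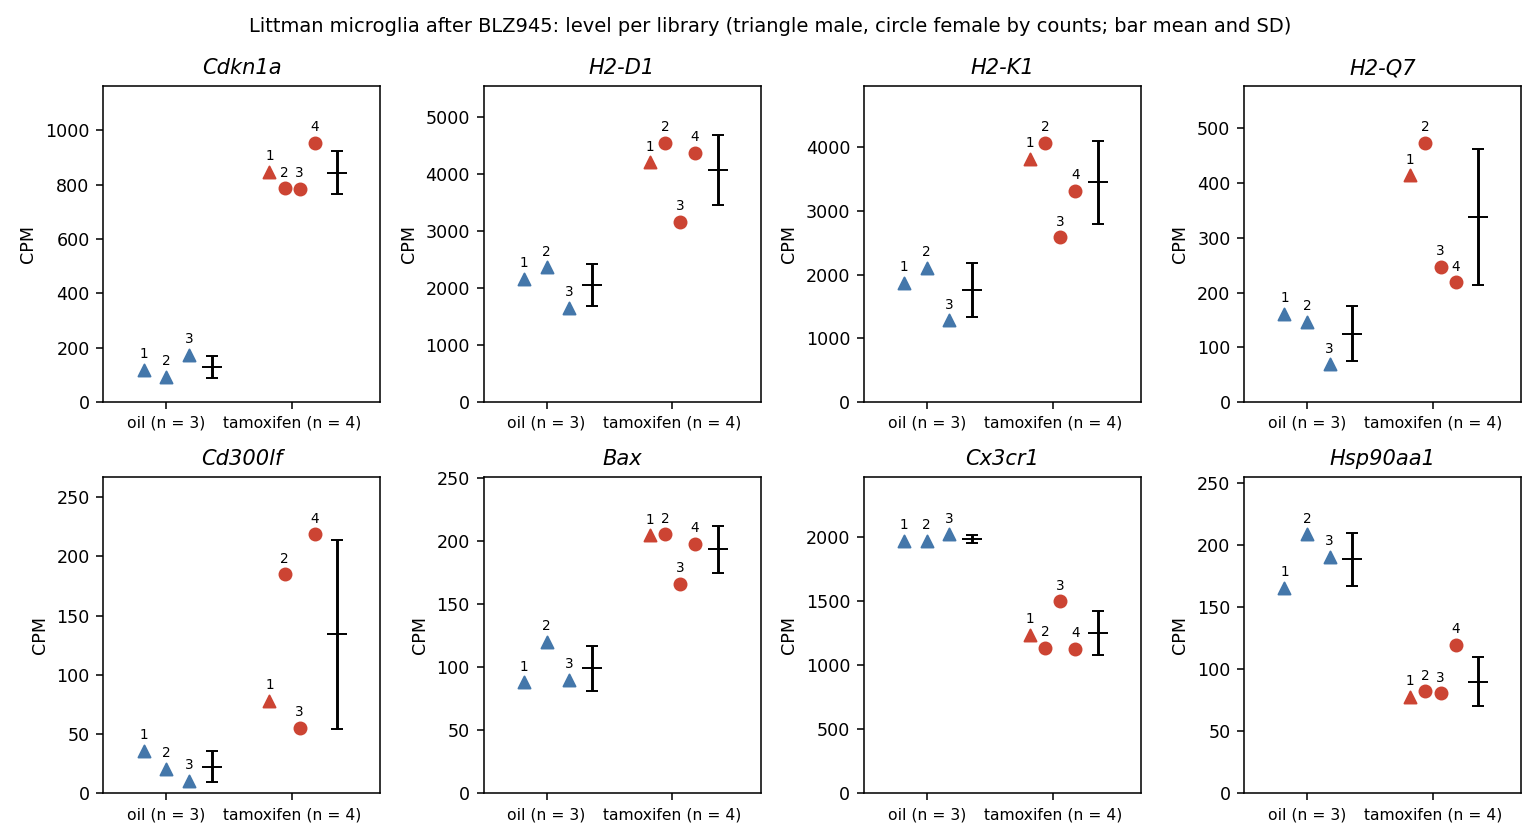
Level in CPM (vertical axes, linear from 0) of 8 genes in each library, with oil and tamoxifen on the horizontal axis. Triangles are male and circles female libraries by their counts, digits are replicate numbers, and bars give the mean and SD; for Cdkn1a the 3 oil libraries sit at 93.9 to 175 CPM and the 4 tamoxifen libraries at 786 to 953 CPM.

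The RefSeq promoter window of Cdkn1a is shown because its gene led the comparison and p53 is its textbook activator. It covers chr17:29090729-29091028 on the plus strand (GRCm38.p6), from 250 bases before to 50 after the start site. Capitals mark a stretch that matches the p53 response element, a pair of adjoining half-sites, with 1 mismatch allowed, starting at position -51 from the start site.
Cdkn1a: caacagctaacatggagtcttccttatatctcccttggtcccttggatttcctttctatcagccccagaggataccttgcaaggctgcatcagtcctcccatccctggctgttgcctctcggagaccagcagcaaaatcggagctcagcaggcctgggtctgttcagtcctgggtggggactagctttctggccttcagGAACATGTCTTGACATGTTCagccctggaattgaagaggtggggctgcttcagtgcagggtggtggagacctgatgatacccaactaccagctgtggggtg
The window of a second RefSeq start of the gene, chr17:29093519-29093818, holds no match. Such a match occurs in 29 of 32851 promoter windows of that length (0.0883%). Of 29 genes of the p53 target list with a window, it occurs in 3: Ccng1, Gtse1 and Rps27l. The match describes these letters and does not show that p53 was bound.

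The rise was not seen in the other testable inhibitor of cyclin-dependent kinases. Cdkn1b, which encodes p27, was the other member of the family with enough counts to test, and it had 275, 209 and 249 CPM in the oil libraries and 141, 144, 242 and 151 CPM in the tamoxifen libraries. Tamoxifen replicate 3 lay within the oil range and the other 3 tamoxifen libraries below it, for a log2 fold change of -0.52 ± 0.28 (edgeR adjusted p = 0.720). Cdkn1c and the Ink4 genes Cdkn2a, Cdkn2b, Cdkn2c and Cdkn2d, which encode p57 and the inhibitors of CDK4 and CDK6, did not have enough counts for the test.

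Other genes known to be switched on by p53 tended to be higher after tamoxifen, although none passed the adjusted test. Of 37 listed targets besides Cdkn1a, 12 had enough counts. A gene seen only after tamoxifen can pass the count filter for that reason, so the counts for this and the other lists describe the tested members alone. Among them 6 were higher at an unadjusted p below 0.05 and 0 were lower, against 3.97% of all tested genes higher and 3.18% lower. In 6 of the 12, every tamoxifen library was above every oil library and in 0 below, against 4.34% and 4.84% of all tested genes. The median log2 fold change was 0.63 over the 12 genes and 0.0022 over all genes. Without tamoxifen replicate 4, the library that stood apart, the median was 0.49 with 4 genes higher (all genes: 2.88% higher, 2.34% lower). With sex as a covariate it was 0.54. Without oil replicate 3 and tamoxifen replicate 1, the libraries with neutrophil transcripts, it was 0.73 with 4 genes higher.

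The smallest p of the group belonged to Bax, whose protein opens the outer mitochondrial membrane in cell death. Bax had 88.1, 120.0 and 90.0 CPM in the oil libraries and 205, 206, 166 and 198 CPM in the tamoxifen libraries. All 4 tamoxifen libraries lay above all 3 oil libraries, and the log2 fold change was 0.96 ± 0.25 (edgeR adjusted p = 0.174; 1.03 among males). Bbc3, which encodes the death inducer PUMA, had 25.9, 10.4 and 37.1 CPM in the oil libraries and 53.6, 41.1, 65.5 and 57.3 CPM in the tamoxifen libraries, again with no overlap (log2 fold change 1.13, unadjusted p = 0.0233). Of 5 genes that feed back on p53, 4 were tested and 3 were higher at an unadjusted p below 0.05. Mdm2, the ubiquitin ligase that removes p53, had 62.2, 57.4 and 79.5 CPM in the oil libraries and 131, 149, 95.7 and 104 CPM in the tamoxifen libraries (log2 fold change 0.85, unadjusted p = 0.0224). Its partner Mdm4 had 176, 162 and 159 CPM in the oil libraries and 326, 221, 206 and 287 CPM in the tamoxifen libraries (log2 fold change 0.65, unadjusted p = 0.0108). Neither gene overlapped between the groups. Ccng1, which encodes cyclin G1, had a log2 fold change of 0.79 with overlapping groups (unadjusted p = 0.0429), and Dcxr, a carbonyl reductase gene, 0.75 without overlap (unadjusted p = 0.0195). Rps27l did not overlap either (log2 fold change 0.62, unadjusted p = 0.0949). The remaining tested targets Trp53inp1, Btg2, Sesn1, Ei24 and Ercc5 had log2 fold changes of 0.40, 0.30, -0.094, -0.0091 and 0.035. Phlda3, an inhibitor of Akt that p53 induces, fell short of the count filter. It was at 0 in all 3 oil libraries and at 29.2, 30.8, 50.4 and 15.6 CPM in the tamoxifen libraries, which is 0 against 25 counts, and it was chosen here after its values were seen. The p53 gene itself, Trp53, had 93.3, 130.5 and 159 CPM in the oil libraries and 131, 134, 106 and 72.9 CPM in the tamoxifen libraries, with overlapping groups (log2 fold change -0.20).

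Antigen presentation by MHC class I was the next group, with the genes of the presenting molecules first and those that load them after. H2-D1, which encodes a classical heavy chain and lies at chromosome 17, 35262730 to 35267499 on the plus strand, had 2166, 2364 and 1653 CPM in the oil libraries and 4208, 4548, 3168 and 4376 CPM in the tamoxifen libraries. All tamoxifen libraries were above all oil libraries, and the gene rose by 0.98 ± 0.19 on the log2 scale (edgeR adjusted p = 0.0257). H2-K1, the other classical heavy chain of this list, had 1871, 2109 and 1282 CPM in the oil libraries and 3818, 4065, 2583 and 3318 CPM in the tamoxifen libraries (log2 fold change 0.97 ± 0.20, edgeR adjusted p = 0.0509). H2-Q7, a non-classical heavy chain gene, had 161, 146 and 68.9 CPM in the oil libraries and 414, 473, 247 and 219 CPM in the tamoxifen libraries (log2 fold change 1.43 ± 0.30, edgeR adjusted p = 0.0509). The groups did not overlap for these 3 genes either, but H2-K1 and H2-Q7 missed the threshold narrowly. DESeq2 called H2-K1 (adjusted p = 0.00427), as did limma-voom (adjusted p = 0.0325). The call of H2-D1 was lost with sex as a covariate and with replicate number as a block (edgeR adjusted p = 0.151). It was also lost without oil replicate 3 and tamoxifen replicate 1 together (edgeR adjusted p = 0.515). Leaving out any 1 of the 3 oil libraries or tamoxifen replicate 2 lost it too (edgeR adjusted p 0.00757 to 0.668 over the fits that left out a library). Among male libraries the log2 fold change was 1.02 for H2-D1, 1.11 for H2-K1 and 1.71 for H2-Q7, each with a single tamoxifen library. These genes are near copies of each other, so reads may have been shared out between them and the value of each is uncertain to that extent.

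Of the 11 listed heavy and light chain genes, 7 were tested. All 7 had positive log2 fold changes with a median of 0.70, 4 were higher at an unadjusted p below 0.05 (3.97% of all tested genes) and 3 were higher with no overlap (4.34% of all tested genes). H2-M3, which presents formylated peptides, was the fourth with 207, 130.5 and 95.3 CPM in the oil libraries and 166, 283, 252 and 239.6 CPM in the tamoxifen libraries (log2 fold change 0.70, unadjusted p = 0.0146), and there tamoxifen replicate 1 lay within the oil range. The light chain gene B2m had 17334, 18309 and 13681 CPM in the oil libraries and 20260.1, 24622, 18839 and 18113 CPM in the tamoxifen libraries, with tamoxifen replicate 4 inside the oil range (log2 fold change 0.32, unadjusted p = 0.161). H2-Q6 and H2-T23 had log2 fold changes of 0.62 and 0.25. Leaving out tamoxifen replicate 4 gave the chain genes a median of 0.82, and leaving out the libraries with neutrophil transcripts 0.67, with 4 genes higher in both. Of 14 listed genes of the machinery that cuts and loads peptides, 12 were tested, 0 were higher and 1 lower at an unadjusted p below 0.05, and the median was -0.079. Psme1, a proteasome activator subunit, was the lower gene (log2 fold change -0.50, unadjusted p = 0.0398), while Tap1 and Tap2, the peptide transporter subunits, had 0.49 and -0.34. MHC class II genes, of which 4 of 8 were tested, had 0 genes past the unadjusted threshold in either direction.

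The promoter windows of the 3 heavy chain genes with the smallest p are printed to show what they share. They come from RefSeq (GRCm38.p6) and run from 250 bases before to 50 after the start site, at chr17:35262844-35263143 on the plus strand for H2-D1, chr17:34000284-34000583 on the minus strand for H2-K1 and chr17:35438905-35439204 on the plus strand for H2-Q7. Capitals mark GGGGATTCC, the core of enhancer A, a site for NF-kB and Rel proteins, and TTTCACTT, the core of an interferon response element.
H2-D1: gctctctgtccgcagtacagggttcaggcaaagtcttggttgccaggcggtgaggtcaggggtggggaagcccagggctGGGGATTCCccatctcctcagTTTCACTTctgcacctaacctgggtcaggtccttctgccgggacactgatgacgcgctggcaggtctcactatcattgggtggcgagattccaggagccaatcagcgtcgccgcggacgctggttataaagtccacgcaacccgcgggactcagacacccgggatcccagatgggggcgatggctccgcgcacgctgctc
H2-K1: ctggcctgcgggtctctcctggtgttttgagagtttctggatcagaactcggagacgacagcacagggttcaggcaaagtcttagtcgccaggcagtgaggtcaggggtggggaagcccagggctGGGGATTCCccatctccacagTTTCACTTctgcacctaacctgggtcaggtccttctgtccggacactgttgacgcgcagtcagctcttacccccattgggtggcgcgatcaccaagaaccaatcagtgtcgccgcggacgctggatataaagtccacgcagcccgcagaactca
H2-Q7: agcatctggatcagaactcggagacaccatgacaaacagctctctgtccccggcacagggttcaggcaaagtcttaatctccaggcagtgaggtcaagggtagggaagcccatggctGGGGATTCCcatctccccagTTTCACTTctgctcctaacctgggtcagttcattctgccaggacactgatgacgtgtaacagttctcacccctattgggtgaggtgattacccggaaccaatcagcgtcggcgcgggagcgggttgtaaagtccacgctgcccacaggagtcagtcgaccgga
All 3 windows hold both motifs in the same order, the first at positions -171, -125 and -133 and the second at -150, -104 and -113. Searched on both strands, the first motif occurs in 82 (0.25%) and the second in 526 (1.6%) of 32851 windows. Among 20 genes of the MHC class I list with a window, the first is found in 4 and the second in 8.

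Interferon-stimulated genes had a median fold change near 0. Of 47 listed genes 37 were tested, 0 were called, and 1 was higher and 1 lower at an unadjusted p below 0.05 (all tested genes: 3.97% and 3.18%). In 0 of them did the groups fail to overlap. Their median log2 fold change was -0.061, with 15 positive and 22 negative. Dhx58, which encodes the RNA sensor LGP2, was the higher gene (77.7, 47.0 and 31.8 CPM in the oil libraries and 122, 123, 75.5 and 88.6 CPM in the tamoxifen libraries; log2 fold change 0.96, unadjusted p = 0.00851). Its tamoxifen replicate 3 lay just inside the oil range. Ifi27l2a, a gene strongly induced by type I interferon, was the lower one (1031, 788 and 709.8 CPM in the oil libraries and 677, 755, 458 and 380.3 CPM in the tamoxifen libraries; log2 fold change -0.57, unadjusted p = 0.0190).

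The interferon genes were well detected in the oil libraries. The oil libraries of this line were set against the 4 oil libraries of the Jung Cx3cr1CreERT2 line from the same count table, a comparison added after the data were seen. The Jung mice also carry Rosa26YFP Hetero, and their titles name BLZ but their treatment labels name oil alone, so line, reporter allele and possibly BLZ945 itself differ and cannot be told apart. In this contrast edgeR called 471 of 5163 genes, 347 of them higher in Littman oil (6.72%) and 124 lower (2.4%). Of the 37 interferon genes 31 were higher and 0 lower, with a median log2 difference of 3.24 against -0.045 over all genes. Of the 7 MHC class I chain genes 6 were higher and 0 lower, with a median of 1.51. Leaving out each of the 7 oil libraries in turn left 30 to 36 interferon genes higher, DESeq2 and limma-voom gave 31 each, and with sex as a covariate there were 31. The total over all genes was 268 without Jung oil replicate 2, 277 without Littman oil replicate 1 and 279 without Littman oil replicate 3.

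Single genes, chosen for this contrast after their values were seen, show its size. Ifi27l2a averaged 843 CPM in Littman oil and 37.1 CPM in Jung oil (log2 difference 4.52 ± 0.31, edgeR adjusted p = 5.39e-12). Bst2, which encodes tetherin, a protein that holds budding virus at the membrane, averaged 1052 against 191 CPM (2.47 ± 0.23, edgeR adjusted p = 5.28e-09). Oasl2, an antiviral gene of the OAS family, averaged 224 against 13.0 CPM (4.06 ± 0.44, edgeR adjusted p = 9.80e-08). The chain genes followed: H2-D1 averaged 2061 against 716 CPM (1.53 ± 0.19, edgeR adjusted p = 1.82e-06) and B2m 16442 against 6007 CPM (1.45 ± 0.22, edgeR adjusted p = 3.22e-05). Cdkn1a was higher in Littman oil too, at 129 against 35.8 CPM (1.79 ± 0.36, edgeR adjusted p = 0.00113). Csf1r, the target of BLZ945, was at 6918 and 6919 CPM (-0.00028 ± 0.17). Of the 36 homeostatic microglia genes 4 were called higher and 0 lower, against 6.72% and 2.4% of all tested genes. Of 20 disease-associated microglia genes 10 were higher and 0 lower, and of 16 chemokine and cytokine genes 7 were higher and 0 lower, against the same shares.

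The other oil groups of the Littman line lie in other count tables that were scaled separately, so their levels are set beside these without a test. In 33 of the 37 interferon genes (89.2%) every oil library here was above every oil library of adult Littman mice without BLZ945, against 16.5% of all genes. The same number, 33, were above every oil library of Littman pups treated with vehicle, against 23% of all genes.

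In those pups, of the same genotype and given tamoxifen or oil as neonates, interferon genes rose strongly with tamoxifen, and the 2 effects were compared directly. On the genes found in both tables, the difference between the tamoxifen effects was called by edgeR for 754 of 5215 genes. For 350 the rise was smaller or the fall larger after BLZ945 (6.71%), and for 404 the reverse held (7.75%). Of 44 interferon genes tested there, 40 rose in the pups (16.2% of all tested genes rose) with a median log2 fold change of 4.95, and the effect after BLZ945 was lower by the test of the difference in 40. In the fit without the pups, 37 were tested. A gene high only in the pup tamoxifen libraries can pass the count filter for that reason, so these counts describe the tested members alone. Age, dose, schedule, count table and BLZ945 all differ between these sets and cannot be told apart. Sex differed as well: by counts the pup oil libraries were 3 female and 1 male, and the pup tamoxifen libraries 2 female and 2 male. With sex as a covariate, 480 genes were called for the difference.

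Levels on the joined scale show where the sets met. Ifi204, a DNA sensor gene, averaged 284 CPM in oil and 297 CPM in tamoxifen libraries here, and 12.2 and 624 CPM in the pups. Bst2 averaged 959 and 1010 CPM here and 144 and 1243 CPM in the pups, and Oasl2 205 and 253 CPM here and 10.5 and 506 CPM in the pups. For these genes both groups after BLZ945 lay between the oil and the tamoxifen mean of the pups. Of 8 chain genes tested in this contrast, 4 had a lower effect after BLZ945 by the test of the difference and 0 a higher one. Over all tested genes the shares were 6.71% and 7.75%. Here too, a gene high only in the pup tamoxifen libraries can pass the count filter for that reason. The log2 difference, after BLZ945 minus pups, was -1.36 for H2-D1 (edgeR adjusted p = 0.000228), -1.90 for H2-K1 (edgeR adjusted p = 2.04e-06) and -3.56 for H2-Q7 (edgeR adjusted p = 0.000765), and it was -0.59 for B2m, which did not pass (edgeR adjusted p = 0.0992). These compare ratios, and the oil levels differed. H2-D1 averaged 1878 and 3698 CPM here and 308 and 1551 CPM in the pups. H2-K1 averaged 1598 and 3128 CPM here and 252 and 1843 CPM in the pups. For H2-D1 and B2m the oil mean here was above the tamoxifen mean of the pups. H2-Q7 averaged 114 and 307 CPM here and 5.85 and 188 CPM in the pups, whose oil libraries held few counts of it. For Cdkn1a the difference was 0.25 (95% interval -0.43 to 0.93, edgeR adjusted p = 0.695), with a rise of 2.45 ± 0.23 in the pups. In the other direction the difference was called for Xist (8.52), where the oil libraries here were all male, and for the mitotic genes Spc24, Tacc3 and Pbk, which fell in the pups. Spc24 averaged 1.58 and 10.2 CPM here and 60.7 and 26.4 CPM in the pups, Tacc3 3.19 and 16.1 CPM here and 122 and 40.2 CPM in the pups, and Pbk 1.61 and 12.5 CPM here and 70.9 and 14.1 CPM in the pups. Their levels here rest on a few counts.

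**Figure D2:**
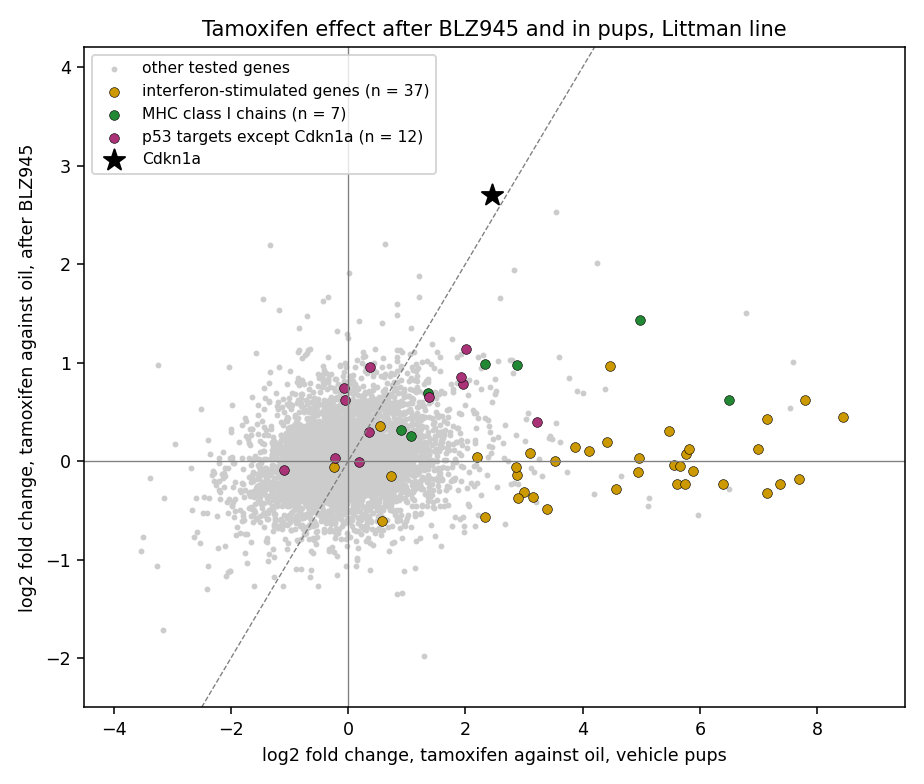
Log2 fold change of tamoxifen against oil in vehicle-treated pups (horizontal axis) and after BLZ945 in adults (vertical axis), both of the Littman line, for 4642 genes (1 more lies outside the axes). Interferon genes spread far to the right along a vertical value near 0, MHC class I chain genes lie to the right and above 0, and Cdkn1a (star) lies near the dashed line of equal change.

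Cd300lf, at chromosome 11, 115116214 to 115133992 on the minus strand, encodes an inhibitory receptor of myeloid cells that binds lipids of dying cells. Its level was 36.3, 20.9 and 10.6 CPM in the oil libraries and 77.9, 185, 55.4 and 219 CPM in the tamoxifen libraries. The groups did not overlap, but the tamoxifen libraries were spread widely, with replicates 2 and 4 far above replicates 1 and 3. The gene rose by 2.53 ± 0.48 on the log2 scale (edgeR adjusted p = 0.0248; DESeq2 adjusted p = 0.0276). The stricter count filter, 20 counts in 3 libraries, removed the gene, so that fit did not test it. The call did not hold in limma-voom (adjusted p = 0.261) or once sex was in the model (log2 fold change 1.90). It was also lost with replicate number as a block (edgeR adjusted p = 0.134) and without oil replicate 3 and tamoxifen replicate 1 together (edgeR adjusted p = 0.207). Leaving out any 1 of the 3 oil libraries, or tamoxifen replicate 2 or 4, lost it too. Among male libraries the log2 fold change was 1.75. In the pups Cd300lf rose as well (3.54). The log2 fold changes were -0.56 ± 1.07 in the Jung set and -0.52 ± 1.29 in the adult Littman set without BLZ945. Its level did not exceed 11.2 CPM in any Jung library or 7.40 CPM in any adult Littman library. At so few counts a rise and a fall cannot be told apart there. Cd300a and Cd300c2 had log2 fold changes of -0.28 and 0.021, and of 8 tested members of the 3 families 1 was higher and 2 lower at an unadjusted p below 0.05 (all tested genes: 3.97% and 3.18%).

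**Figure D3:**
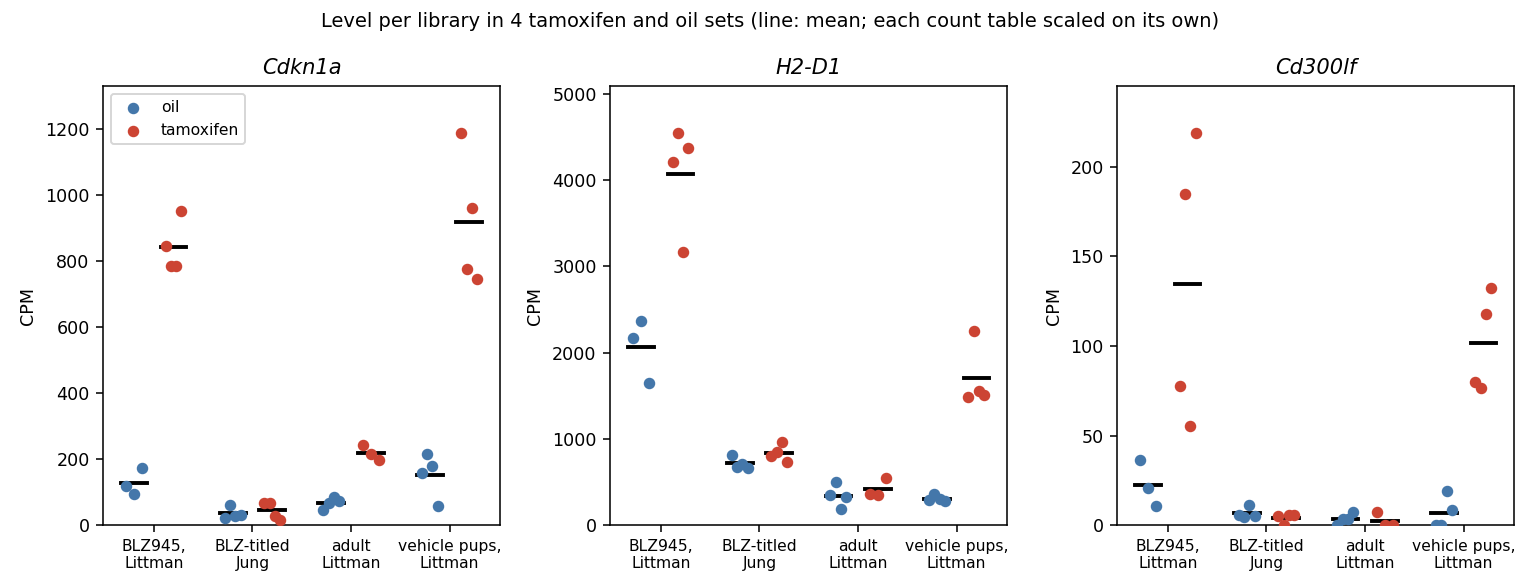
Level in CPM per library (vertical axes, linear from 0) of Cdkn1a, H2-D1 and Cd300lf in oil and tamoxifen libraries of 4 sets (horizontal axis), with the mean as a line; each count table was scaled on its own. Cdkn1a averages 129 CPM in oil and 843 CPM in tamoxifen libraries after BLZ945, 35.8 and 45.4 CPM in the BLZ-titled Jung set, 68.9 and 219 CPM in adult Littman mice, and 154 and 918 CPM in pups.

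The same tamoxifen comparison in the other adult sets gave few calls. In adult Littman mice without BLZ945, edgeR called 1 of 5730 genes (0.0175%), Cdkn1a, with 68.9 ± 16.9 CPM in oil (SD, n = 4) and 219 ± 22.0 CPM in tamoxifen libraries (n = 3). Its log2 fold change there was 1.65 ± 0.23 (edgeR adjusted p = 0.000455). After BLZ945 the effect was larger by 1.02 ± 0.33 (95% interval 0.37 to 1.67), a difference that did not pass once adjusted over all genes (edgeR adjusted p = 0.989). No gene passed the adjusted test of the difference between these sets in edgeR, DESeq2 or limma-voom, each with 0 of 5730, while 249 (4.35%) had an unadjusted p below 0.05. By counts the adult oil libraries were 3 female and 1 male, and the 3 adult tamoxifen libraries were female, so the sets differ in sex as well. In the BLZ-titled Jung set 0 of 5163 genes (0%) were called by edgeR, DESeq2 or limma-voom, with 287 at an unadjusted p below 0.05. The difference between the lines was called for 0 genes by edgeR and limma-voom and 1 by DESeq2, with 417 (8.08%) at an unadjusted p below 0.05. The interval of the Cdkn1a difference from the Jung set was 1.41 to 3.39. H2-D1 had a log2 fold change of 0.23 in the Jung set and 0.30 in adult Littman mice, against 0.98 here.

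Genes of resting microglia mostly had lower levels after tamoxifen. None was called by edgeR, and DESeq2 called Cx3cr1. Of 37 listed homeostatic genes 36 were tested, 1 was higher and 8 lower at an unadjusted p below 0.05 (all tested genes: 3.97% and 3.18%), and the median was -0.19. In 7 every tamoxifen library was below every oil library, and in 1 above (all tested genes: 4.84% and 4.34%). Cx3cr1, the fractalkine receptor gene whose locus drives the Cre, had 1969, 1973 and 2023 CPM in the oil libraries and 1237, 1136, 1501 and 1130.5 CPM in the tamoxifen libraries. The oil libraries were nearly alike and all 4 tamoxifen libraries lay below them, for a log2 fold change of -0.67 ± 0.18 (edgeR adjusted p = 0.186, DESeq2 adjusted p = 0.0303; -0.69 among males). The 3' tags may come from the Cre allele as well as the intact one. Csf1r had 6737, 7333 and 6684 CPM in the oil libraries and 5562, 4795, 5685 and 4349.9 CPM in the tamoxifen libraries, also with no overlap (log2 fold change -0.44, unadjusted p = 0.0162).

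The lower homeostatic genes included secreted proteins. Cst3, the gene of the protease inhibitor cystatin C, had 32067, 39938 and 31865 CPM in the oil libraries and 17981, 16379, 24006 and 7991 CPM in the tamoxifen libraries (log2 fold change -1.06 ± 0.29, edgeR adjusted p = 0.186). Sparc, which encodes a matrix-binding protein, had 8545, 8810.2 and 9248 CPM in the oil libraries and 6765, 4641, 6083 and 2527 CPM in the tamoxifen libraries (log2 fold change -0.83 ± 0.22, edgeR adjusted p = 0.186). Both had no overlap and their lowest level in tamoxifen replicate 4. Among male libraries, with a single tamoxifen library, the log2 fold change was -0.95 for Cst3 and -0.40 for Sparc. Olfml3, Siglech, Gpr34 and Fcrls, microglia-enriched genes of a secreted protein and 3 surface receptors, had log2 fold changes of -0.62, -0.59, -0.60 and -0.73. P2ry12, the purinergic receptor that guides microglial processes, overlapped, with 3280.2, 3252 and 2807 CPM in the oil libraries and 2109, 1943, 3479.7 and 1130.5 CPM in the tamoxifen libraries (log2 fold change -0.52). Of 11 tested transcription factors of microglial identity, 0 had an unadjusted p below 0.05 and 7 had a negative log2 fold change, with Sall1 at -0.14. Spi1, which encodes the myeloid factor PU.1, was the 1 without overlap, with 559.7, 600.2 and 551 CPM in the oil libraries and 521, 539.6, 494 and 531 CPM in the tamoxifen libraries (log2 fold change -0.13, unadjusted p = 0.559). Gas6, a ligand of the receptors that clear dying cells, was the higher gene, with 187, 78.3 and 111 CPM in the oil libraries and 268, 283, 196 and 297 CPM in the tamoxifen libraries and no overlap (log2 fold change 1.05 ± 0.28, edgeR adjusted p = 0.186). Without tamoxifen replicate 4 the median of the homeostatic list was -0.10, with 1 gene higher and 6 lower (all genes: 2.88% higher, 2.34% lower). In bulk libraries, fewer cells of a type and less RNA per cell cannot be told apart. The summed monocyte markers, highest in tamoxifen replicate 4 at 604 CPM, are given beside this result, and their part in it was not tested.

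Most tested heat shock genes had lower levels in the tamoxifen libraries, and edgeR called none. Of 9 listed genes 5 were tested, and 4 had an unadjusted p below 0.05 and no overlap, all of them lower, with a median of -0.74. Over all tested genes 3.18% were lower at that p and 4.84% lower with no overlap. Hsp90aa1, the inducible HSP90 chaperone gene, had 166, 209 and 191 CPM in the oil libraries and 77.9, 82.2, 80.6 and 119.8 CPM in the tamoxifen libraries (log2 fold change -1.06 ± 0.29, edgeR adjusted p = 0.186). Dnajb1, an HSP40 co-chaperone gene, had 129.6, 130.5 and 127 CPM in the oil libraries and 77.9, 51.4, 50.4 and 31.3 CPM in the tamoxifen libraries (log2 fold change -1.27 ± 0.34, edgeR adjusted p = 0.186). Hspa8, the constitutive HSC70 chaperone gene, had 611, 522 and 604 CPM in the oil libraries and 341, 344, 292 and 406 CPM in the tamoxifen libraries (log2 fold change -0.74, unadjusted p = 0.0377). All tamoxifen libraries of these 3 genes were below all oil libraries. Hsp90ab1 had a log2 fold change of -0.58, and Hspa5, the chaperone of the endoplasmic reticulum, -0.075. The median was -0.82 without tamoxifen replicate 4 and -0.53 with sex as a covariate, and 2 genes instead of 4 had an unadjusted p below 0.05 without the 2 libraries that held neutrophil transcripts. Immediate early genes, which like heat shock genes can react to tissue handling, had 0 of 6 tested members past the unadjusted threshold.

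**Figure D4:**
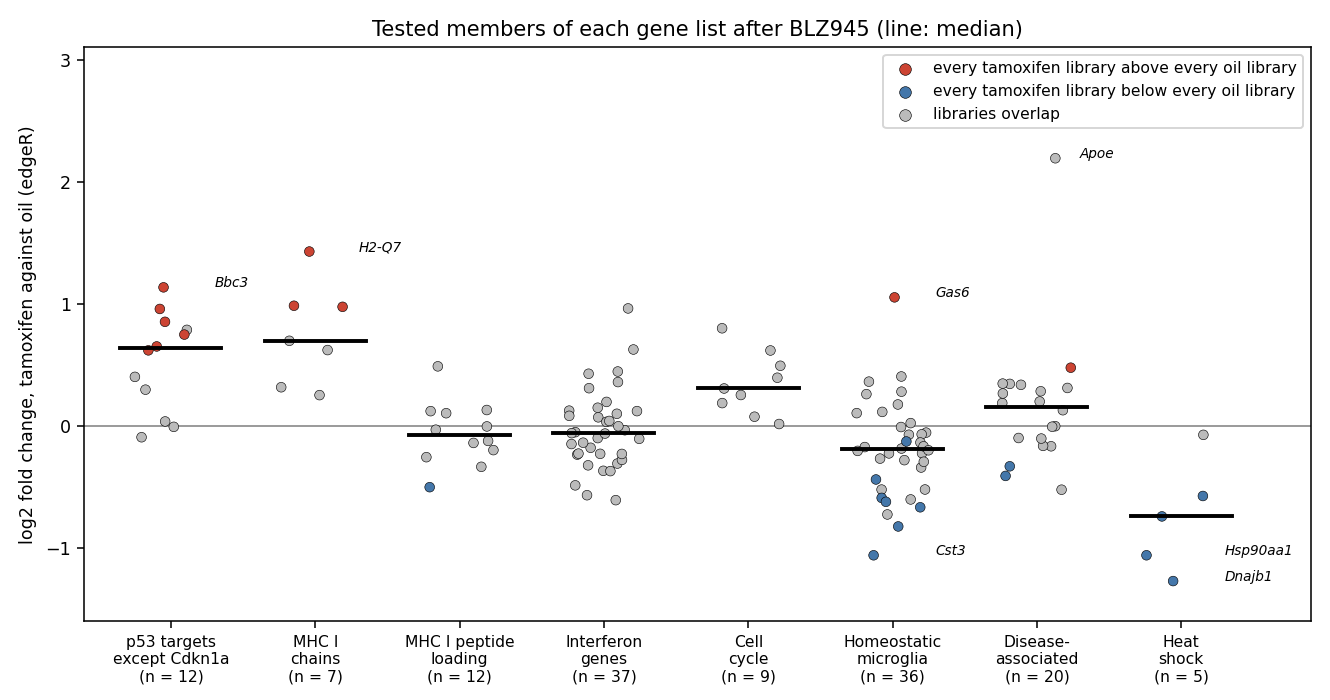
Log2 fold change of tamoxifen against oil (vertical axis) for each tested member of 8 gene groups (horizontal axis), with the median as a line. Red members had every tamoxifen library above every oil library (6 of 12 p53 targets, 3 of 7 MHC class I chains), blue members the reverse (7 of 36 homeostatic genes, 4 of 5 heat shock genes), and gray members overlapped, among them all 37 interferon genes.

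Several of the largest fold changes rested on a few libraries. Apoe, the lipid carrier gene that rises in microglia around plaques and dying cells, had 4006, 1357 and 3904 CPM in the oil libraries and 4573, 10895, 2452 and 38534 CPM in the tamoxifen libraries. Tamoxifen replicate 4 was far above all others and replicate 2 next, while replicates 1 and 3 lay in or near the oil range. The log2 fold change was 2.19 ± 0.53 (edgeR adjusted p = 0.147) and 0.56 among male libraries. Ddit4, a stress-induced inhibitor of mTOR, had 36.3, 10.4 and 5.30 CPM in the oil libraries and 24.4, 134, 35.3 and 594 CPM in the tamoxifen libraries, with the same 2 replicates highest (log2 fold change 3.43 ± 0.81, edgeR adjusted p = 0.131). Fkbp5, which like Ddit4 answers to glucocorticoid hormone, had 88.1, 120.0 and 63.6 CPM in the oil libraries and 97.4, 349, 166 and 401 CPM in the tamoxifen libraries (log2 fold change 1.47 ± 0.38, edgeR adjusted p = 0.174; 0.096 among males). Of 7 tested glucocorticoid-responsive genes 2 were higher at an unadjusted p below 0.05 (all tested genes: 3.97% higher, 3.18% lower), with a median of 0.39. Without tamoxifen replicate 4 the median was -0.039 and 2 genes were still higher (all genes: 2.88% higher, 2.34% lower). The list's median was 0.67 in the Jung set, 0.35 in adult Littman mice and -0.49 in the pups. The disease-associated list that holds Apoe had a median of 0.16 over 20 tested genes of 29. In it 2 were higher and 0 lower at an unadjusted p below 0.05 (all tested genes: 3.97% and 3.18%). B4galt1, a galactosyltransferase gene, was the other higher member (306, 397 and 344 CPM in the oil libraries and 468, 463, 408 and 604 CPM in the tamoxifen libraries; log2 fold change 0.48).

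Tamoxifen replicate 4 also differed in further genes, chosen here after their values were seen. Ms4a6d, a macrophage gene of the MS4A family, was at 906 CPM in that library and at 111 to 242 CPM in the other 6, and its neighbour Ms4a6b at 870.0 CPM against 136 to 231 CPM. The Fc receptor gene Fcgr4, a member of the list of Toll-like and phagocytic receptors, was at 516 CPM, against 101 to 231 CPM elsewhere. Ramp1, a subunit of the receptor for the neuropeptide CGRP, was at 5.21 CPM against 61.7 to 143 CPM, and Slc12a2, the gene of a sodium, potassium and chloride cotransporter, at 36.5 CPM against 144 to 282 CPM. That library's sex was shared by tamoxifen replicates 2 and 3, and its total and its number of detected genes were within the range of the others.

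**Figure D5:**
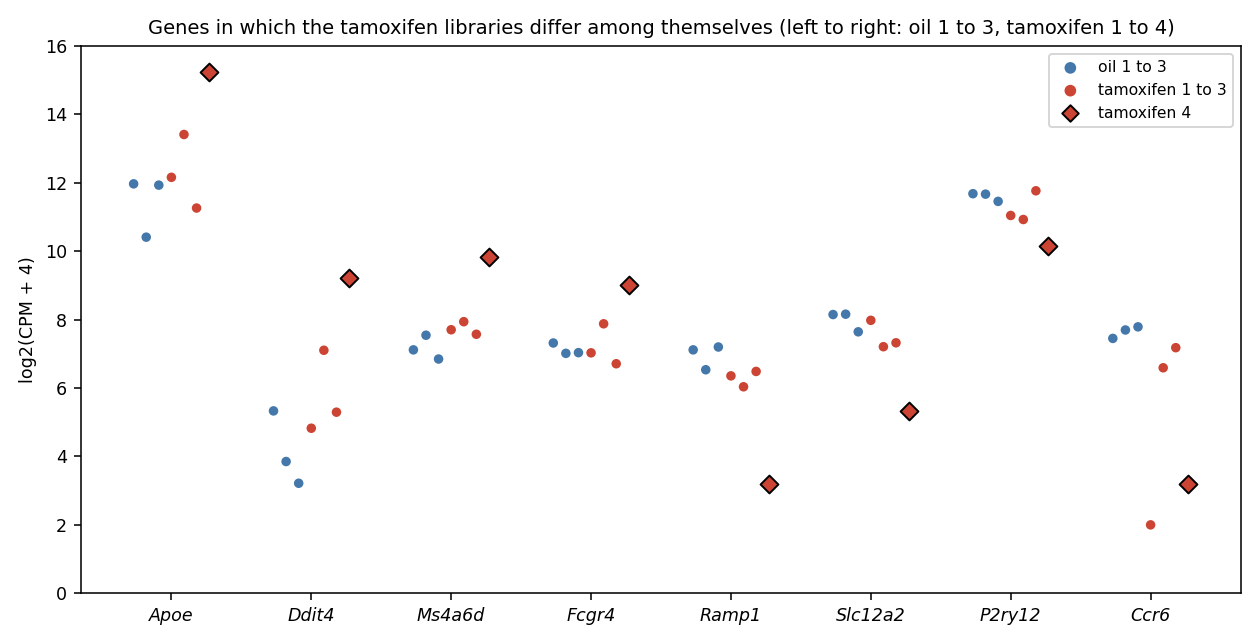
Level as log2(CPM + 4) (vertical axis) of 8 genes in each library (horizontal axis, oil replicates 1 to 3 and then tamoxifen replicates 1 to 4 within each gene). Tamoxifen replicate 4 (diamonds) is highest for Apoe, Ddit4, Ms4a6d and Fcgr4 and lowest for Ramp1, Slc12a2 and P2ry12, and Ccr6 is near 0 in tamoxifen replicates 1 and 4.

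Among chemokines and cytokines, 16 of 30 listed genes were tested, 4 were higher and 0 lower at an unadjusted p below 0.05, and the median was 0.15. Over all tested genes 3.97% were higher and 3.18% lower at that p, which is the background for each list in this paragraph. Ccl5, which recruits T cells, had 145, 104 and 84.7 CPM in the oil libraries and 365, 617, 156 and 130.2 CPM in the tamoxifen libraries (log2 fold change 1.50 ± 0.38, edgeR adjusted p = 0.172). Ccl4, an inflammatory chemokine gene, had 161, 130.5 and 148 CPM in the oil libraries and 141, 606, 262 and 177 CPM in the tamoxifen libraries (log2 fold change 1.01, unadjusted p = 0.0159). In both, tamoxifen replicate 2 was highest and the groups overlapped. EdgeR called Ccl5 without tamoxifen replicate 3 and also without tamoxifen replicate 4 (edgeR adjusted p = 0.0339 without replicate 4). The other fits that left out a library did not call it. Among male libraries, with a single tamoxifen library, the log2 fold change was 1.698 for Ccl5 and -0.060 for Ccl4. Ccl2 and Nfkbia, the latter encoding an inhibitor of NF-kB, had 0.73 and 0.57. Of 17 tested genes of CSF1 receptor signalling, 3 were higher and 1 lower at an unadjusted p below 0.05. The higher ones were the survival gene Bcl2l1 (1.03), the transcription factor gene Runx1 (0.69, but -0.13 among male libraries) and the phospholipase gene Plcg2 (0.53), and Csf1r was the lower one. Of 21 tested Toll-like and phagocytic receptor genes 3 were higher and 2 lower. With tamoxifen replicate 4 left out, 1 was higher and 1 lower (all genes: 2.88% higher, 2.34% lower). Fcgr4, among the higher ones, had a log2 fold change of 0.83, and of 0.17 without that library. Tlr13, a sensor of bacterial RNA, had 155, 183 and 101 CPM in the oil libraries and 302, 221, 161 and 229 CPM in the tamoxifen libraries (log2 fold change 0.64) and Cd14, a co-receptor for bacterial lipid, 782, 997 and 673 CPM in the oil libraries and 453, 370.0, 635 and 750.2 CPM in the tamoxifen libraries (log2 fold change -0.57), with some overlap in each. Of 22 lysosomal genes 0 were higher and 1 lower, and of 11 mitochondrially encoded mRNAs 0 passed the unadjusted threshold.

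Cell cycle genes were scarce. Of 48 listed genes 9 were tested and 0 had an unadjusted p below 0.05, with a median of 0.31 and all 9 log2 fold changes above 0 (2598 of 5163 over all tested genes). Ccnd1, which encodes cyclin D1 and acts just upstream of the step that p21 blocks, had 36.3, 67.9 and 74.2 CPM in the oil libraries and 63.3, 97.6, 65.5 and 109 CPM in the tamoxifen libraries, with overlapping groups (log2 fold change 0.49), and Mcm7, a subunit of the replication helicase, 15.5, 26.1 and 5.30 CPM in the oil libraries and 34.1, 15.4, 50.4 and 10.4 CPM in the tamoxifen libraries (log2 fold change 0.80). Of 24 genes of DNA break sensing and repair 5 were tested, 0 of them past the unadjusted threshold. At this depth most genes of both lists could not be tested. Among cell cycle genes below the count filter, chosen here after their values were seen, Mki67 had 2 counts in all oil and 25 in all tamoxifen libraries. Mki67 was at 0 in tamoxifen replicate 4. Top2a had 12 and 33 counts, while Mcm3 had 18 and 24 and Cdc6 1 and 0.

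Of the remaining genes with small p-values, some had no overlap between the groups. Cpd, a carboxypeptidase gene, had 82.9, 26.1 and 26.5 CPM in the oil libraries and 161, 185, 106 and 125 CPM in the tamoxifen libraries (log2 fold change 1.66 ± 0.36, edgeR adjusted p = 0.0657). Crlf2, the gene of the receptor for thymic stromal lymphopoietin, had 72.5, 120.0 and 111 CPM in the oil libraries and 141, 278, 196 and 276 CPM in the tamoxifen libraries (log2 fold change 1.13 ± 0.29, edgeR adjusted p = 0.174). Prune2 had 41.5, 36.5 and 42.4 CPM in the oil libraries and 136, 123, 75.5 and 93.8 CPM in the tamoxifen libraries (log2 fold change 1.41 ± 0.35). In all 3 genes the lowest tamoxifen library was above the highest oil library. Among male libraries, with a single tamoxifen library, the log2 fold change was 1.80 for Cpd, 0.47 for Crlf2 and 1.74 for Prune2. On the other side, Igfbp4, which binds insulin-like growth factors, had 114, 130.5 and 169 CPM in the oil libraries and 68.2, 56.5, 75.5 and 20.8 CPM in the tamoxifen libraries (log2 fold change -1.30 ± 0.31, edgeR adjusted p = 0.136), and Npnt, the gene of the matrix protein nephronectin, 259, 240.1 and 191 CPM in the oil libraries and 170.5, 118, 106 and 26.0 CPM in the tamoxifen libraries (log2 fold change -1.12 ± 0.33, edgeR adjusted p = 0.265). Both were lowest in tamoxifen replicate 4, and among male libraries Igfbp4 had a log2 fold change of -1.02 and Npnt of -0.44. The paired membrane protein genes Tmem176a and Tmem176b had log2 fold changes of -0.86 and -0.82, with tamoxifen replicate 4 inside the oil range and the other 3 below it. Without that library they were -1.17 and -1.07, and edgeR called both (edgeR adjusted p = 0.0465 and 0.0424). No other fit that left out a library called them.

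Ccr6 encodes the receptor for CCL20. Its level was 171, 204 and 217 CPM in the oil libraries and 0, 92.5, 141 and 5.21 CPM in the tamoxifen libraries, so that it was near 0 in 2 tamoxifen libraries, 1 of them male and 1 female, and well detected in the other 2. The log2 fold change was -1.72 ± 0.48 (edgeR adjusted p = 0.186). DESeq2 did not call it (adjusted p = 0.763), while limma-voom did (log2 fold change -3.17, adjusted p = 0.0459). EdgeR also called it without a count filter and without tamoxifen replicate 3. Among male libraries the log2 fold change was -8.24, which rests on a single tamoxifen library at 0 CPM. Ccr6 also varied from library to library elsewhere: in adult Littman mice its levels ran from 0 to 344 CPM among 4 oil libraries and from 0 to 384 CPM among 3 tamoxifen libraries, and in pups from 0 to 69.4 CPM among 4 oil libraries. In the BLZ-titled Jung set it stayed between 0 and 11.4 CPM in all 8 libraries, and the oil libraries here were higher than the Jung oil libraries by 5.94 ± 0.81 on the log2 scale (edgeR adjusted p = 7.54e-06).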

How the data were processed

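The authors deposited raw, unnormalised counts, as whole numbers for each gene in each library. Per the submitters' processing notes, UMI-tools, Trim Galore, HISAT2 and featureCounts were used with the mouse build GRCm38; for versions, annotation, strand and shared reads, the setting is not given in the sources used here. Counts were fitted with edgeR 4.0.16 in R 4.3.3 (TMM, filterByExpr by group, quasi-likelihood test with Benjamini-Hochberg adjustment, call below 0.05). The fit held all 15 libraries of the BLZ-titled table, whose Jung groups share the estimate of spread; 5163 of 18397 genes were tested. Differences from other tables were fitted on the 15817 genes shared with the adult Littman table and the 16438 shared with the pup table. Alternatives were DESeq2 1.42.0, limma-voom (limma 3.58.1), other size factors and filters, a 2-group fit, sex covariate, replicate block and left-out libraries. The scripts were tested on simulated data. Sex was read from Xist and Y-linked counts. Promoters come from RefSeq GRCm38.p6, gene positions from GENCODE on GRCm38. Named genes were every called gene, Cdkn1a, Cx3cr1 and Csf1r, the 12 smallest unadjusted p-values each way with at least 20 CPM in the higher group (no sex-linked genes or predicted models), the 3 smallest per list and the tested CDK inhibitor and CD300 genes, or as stated. Other members of a list are given for its description. The members and lists were chosen with earlier results of these data known. Some results are not reported here.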

Additional observations from a re-analysis of the deposited data

Results flagged for a closer look

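In groups of 4 libraries, a single library far from the other 3 was seen for 5 of the named genes, and chance flags about 1 in 20 groups. These were tamoxifen replicate 4 for Hsp90aa1 (120 CPM) and Tsc22d3 (141 CPM), replicate 3 for Cdkn1b (242 CPM), replicate 2 for H2-DMa (524 CPM) and replicate 1 for Brca2 (34.1 CPM).

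The tamoxifen effect after BLZ945 differed from that in vehicle-treated pups of the same line for 754 genes by edgeR's test of the difference. Among the named genes the log2 difference was -8.00 for Ifi213, -7.87 for Ifih1, -7.61 for Usp18 and -7.61 for Ifi211, all of them interferon-induced, and -1.36 for H2-D1. The first 4 were at 0 CPM in the oil libraries of the pups, so their fitted differences depend on the prior count and are no bounds. In the other direction it was 3.58 for Spc24, 3.72 for Tacc3 and 4.90 for Pbk, genes of mitosis. For Xist it was 8.52, and the 3 oil libraries here were all male while 3 of the 4 tamoxifen libraries were female.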

How the results depend on the processing

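The 3 genes called became 5 with DESeq2, 5 with upper-quartile size factors, 44 without a count filter, 7 in a fit of the 2 groups alone, 1 with sex as a covariate and 1 to 13 when a library was left out in turn. Without oil replicate 3 and tamoxifen replicate 1, chosen after seeing the data, 1 remained. Cdkn1a was called in all of these, and limma-voom called 4, the stricter filter 3 and the male libraries alone 4. The difference from the Jung set went from 0 genes to 1 with DESeq2, 10 without a filter and 1 with the block, and that from adult Littman mice from 0 to 9 without a filter and 0 to 1 with a library left out. The 754 differences from the pups became 480 with sex as a covariate, and the 471 oil differences between lines 268 to 579 with a library left out. Causes were not tested beyond the changed samples or genes.

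Replicate numbers are shared between groups, but deviations of same-numbered libraries correlated at 0.0251, -0.0202 and -0.0334, so they do not pair the samples; the fit with the replicate block called 3 genes, Cdkn1a, H2-Q7 and Xist, and did not call H2-D1 (edgeR adjusted p = 0.151) or Cd300lf (edgeR adjusted p = 0.134).

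Some log2 values changed sign. With sex as a covariate these were Xist -0.38, Kdm5d 0.23, Ddx3y 0.61, Atr -0.13 and the Xist difference from pups -1.95. Among male libraries they were Ccl4 -0.060, Runx1 -0.13, Fcgr4 -0.11, Kdm5d 0.22, Ddx3y 0.61, Tsc22d3 -0.28, Brca2 0.19, Trp53 0.038 and mt-Nd1 -0.19. Tsc22d3 was -0.16 with the block. With a library left out in turn, Tsc22d3 ranged from -0.16 (without tamoxifen replicate 4) to 0.74, Abca1 from -0.29 to 0.014 (oil replicate 1), H2-DMb1 from -0.020 (oil replicate 3) to 0.27, Cd74 from -0.25 (oil replicate 3; -0.081 without tamoxifen replicate 1) to 0.60, Cd300c2 from -0.033 (oil replicate 3) to 0.069 and the Cdkn1a difference from pups from -0.047 (oil replicate 2) to 0.53. Without both oil replicate 3 and tamoxifen replicate 1, Cd74 was -0.47 and Cd300c2 -0.034. None of these passed the adjusted test. At 224642 to 236106 counts a library, most genes could not be tested.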
